A study of Danio rerio with 24 samples.

Results

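The retinal pigment epithelium (RPE) of zebrafish larvae was compared between ablated and unablated eyes 4 days post-injury (4dpi), in larvae 9 days old that all received the vehicle DMSO. The comparison used 6 of the 24 libraries of the series, 3 from ablated eyes (MTZ+ DMSO) and 3 from unablated eyes (MTZ- DMSO), and took in every one of the 25281 genes of the deposited 4dpi table. The series also holds 12 libraries of larvae given Rapamycin in place of DMSO, 6 of them at 4dpi. Those 6 entered the statistical fit, where they helped to set the spread, but no comparison made here. All larvae came from crosses of rpe65a:nfsB-eGFP fish with the AB strain. In this line the rpe65a enhancer drives a bacterial nitroreductase fused to eGFP in the RPE, and nitroreductase turns the prodrug metronidazole (MTZ) into a toxic product, which kills cells that carry the transgene. MTZ+ DMSO larvae were given 10 mM MTZ for a day and left to regenerate. MTZ- DMSO larvae carried the same transgene and had 0 mM MTZ. DMSO began a day before ablation and went on to collection in both groups. Pigment formation was suppressed with PTU before ablation in both, and all fish were kept in the dark. Eyes of many larvae were pooled for each library, dissociated and sorted, and up to 1000 living eGFP+ cells were lysed for low-input, polyA-primed RNA-seq. The sort selects on the transgene and on survival, so the MTZ+ DMSO libraries hold the eGFP+ cells that were present 4 days after ablation, and the type of each cell was not recorded.

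The RPE is a single sheet of pigmented cells behind the photoreceptors. It regenerates the chromophore of the visual pigments, takes up shed photoreceptor outer segments, moves ions, water and nutrients between the blood and the retina, and absorbs stray light with melanin. In mammals a damaged RPE does not regrow, whereas larval zebrafish regenerate it. The series asks which genes accompany that regrowth, and the unablated larvae give the level of each gene in intact RPE of the same age.

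Between 20607731 and 30716905 fragments were assigned to genes in MTZ+ DMSO libraries and between 29608508 and 32767111 in MTZ- DMSO libraries. Log2 values of counts scaled to library size (CPM) correlated across genes at r = 0.919 to 0.933 between MTZ+ DMSO libraries and 0.955 to 0.960 between MTZ- DMSO libraries, and at 0.813 to 0.865 between the groups. MTZ+ DMSO libraries detected more genes (15664 to 16902 with at least 10 counts, against 14071 to 14761 in MTZ- DMSO) and had a larger share of mitochondrially encoded counts (7.86% to 11.9%, against 2.93% to 4.18%). The transgene's driver gene, rpe65a, took 0.638% to 1.24% of counts in MTZ+ DMSO libraries and 1.89% to 1.96% in MTZ- DMSO libraries. All 3 measures separated the groups completely, and their part in the results that follow was not tested. The raw name of MTZ+ DMSO replicate 2 carries the letter D, which is otherwise that of the MTZ+ Rapamycin libraries, and the library with the letter C and the same date is labelled MTZ+ Rapamycin replicate 2. What the letter marks is not stated, and whether these libraries were exchanged was not tested. Groups follow the labels. Without MTZ+ DMSO replicate 2 there were 1838 higher and 1088 lower differentially expressed genes (as defined below), 1788 and 1033 of them shared with the fit on all libraries. In such pooled samples, fewer RPE cells among those sorted and less of an RPE transcript per cell cannot be told apart.

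Of 17515 genes with enough counts to test, 2512 were differentially expressed genes (DEGs) with higher expression in MTZ+ DMSO (14.3% of genes tested) and 1601 were DEGs with lower expression (9.14%). A DEG here had an adjusted p under 0.05 (edgeR quasi-likelihood test, Benjamini-Hochberg adjustment), a change of more than 1 on the log2 scale and a mean of at least 1 TPM in the higher group. The changes upward were larger: 1067 of the higher DEGs and 199 of the lower DEGs changed more than 8-fold. For 344 higher DEGs every MTZ- DMSO library held 3 counts or fewer, and for 17 lower DEGs every MTZ+ DMSO library did. The groups did not overlap for 4034 of the 4113 DEGs, but they also did not overlap for 46.8% of all genes tested. The median gene tested was 0.27 higher in MTZ+ DMSO on the log2 scale. Medians were larger in some marker lists (below) with few DEGs, 1.84 for leukocytes (1 DEG of 29 tested) and 2.01 for fibroblasts (2 of 17). A positive list median alone therefore does not set a pathway apart. With library totals alone in place of TMM scaling (a setting chosen after the data were seen), the median over genes tested moved upward by 0.44. In that setting 3732 genes were called higher and 955 lower, so that higher genes made up 79.6% of DEGs in place of 61.1%. Calls of lower expression close to the threshold therefore depend on the scaling and are given with the genes concerned.

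The 10 higher DEGs with the smallest p-values that rose in all 3 same-numbered pairs came from several functional classes. abracl, which encodes a small actin-regulating protein (chromosome 20, 36806398 to 36818195, GRCz11), had 98.3, 77.9 and 84.1 CPM in MTZ+ DMSO, against 4.86, 5.06 and 4.68 CPM in MTZ- DMSO. abracl rose by 4.15 ± 0.17 on the log2 scale (edgeR adjusted p = 3.14e-07). Expression of dnajb11, an endoplasmic reticulum co-chaperone (chromosome 9, 32641026 to 32648725), was 51.4, 74 and 53.5 CPM in MTZ+ DMSO, against 4.74, 4.75 and 5.17 CPM in MTZ- DMSO. dnajb11 rose by 3.61 ± 0.23 on the log2 scale (edgeR adjusted p = 2.66e-05). Both genes overlap a neighbour (slc25a27 and rabl3), and how reads on shared sequence were assigned is not given in the sources used here. pfkfb3 encodes an enzyme that makes an activator of glycolysis (chromosome 4, 25472505 to 25485404) and had 147, 161 and 153 CPM in MTZ+ DMSO, against 0.797, 2.77 and 1.57 CPM in MTZ- DMSO. pfkfb3 rose by 6.47 ± 0.49 on the log2 scale (edgeR adjusted p = 7.22e-05). The sodium pump subunit atp1a1b (chromosome 9, 35901554 to 35922201) showed 160.0, 243 and 233 CPM in MTZ+ DMSO, against 8.44, 7.01 and 6.78 CPM in MTZ- DMSO. atp1a1b rose by 4.84 ± 0.36 on the log2 scale (edgeR adjusted p = 7.22e-05). rab32a, a small GTPase of melanosome transport, was 5.01-fold higher, and mt2, a metal-binding metallothionein, 47.2-fold higher. The rest of these 10 were abcf2a (an ATPase of the ABC family without membrane domains, 10.6-fold), cycsb (cytochrome c, 9.21-fold), cst14b.1 (a cystatin protease inhibitor, 13-fold) and e2f7. e2f7, an E2F factor that acts in the cell cycle, had 26.8, 36.6 and 25.6 CPM in MTZ+ DMSO, against 0.119, 0.208 and 0.105 CPM in MTZ- DMSO, and so was close to silent in intact RPE.

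The 10 lower DEGs chosen in the same way included regulators of RNA, chromatin and signalling. Expression of caprin1b, an RNA-binding protein of stress granules (chromosome 18, 38246940 to 38271298), was 105, 74.4 and 71.3 CPM in MTZ+ DMSO, against 586, 594 and 514 CPM in MTZ- DMSO. caprin1b fell by 2.75 ± 0.21 on the log2 scale (edgeR adjusted p = 7.22e-05). slc43a2b, a transporter of large neutral amino acids (chromosome 10, 24371921 to 24391716), had 129.8, 123 and 106 CPM in MTZ+ DMSO, against 3914, 2178 and 1953 CPM in MTZ- DMSO. slc43a2b fell by 4.49 ± 0.44 on the log2 scale (edgeR adjusted p = 0.000211). nfkbie, an inhibitor of NF-κB, was 11.9-fold lower, and tcf7l1a, a transcription factor that represses Wnt targets, 6.21-fold lower. pds5b (a cohesin cofactor), gna13b (a G protein subunit), dstyk (a kinase), rfxap (a subunit of the RFX complex) and si:ch211-117k10.3 were lower by 3.92-fold to 6.29-fold, and cpn1_2 (a carboxypeptidase N gene that overlaps its copy cpn1_1) by 30.3-fold. In all 20 genes the lowest library of the higher group lay above the highest library of the other group, and all 20 remained DEGs under each alternative and with any 1 of the 6 libraries left out. A choice by smallest p and by pairs from these same libraries favours both, so neither is separate support.

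Among genes with at least 5 CPM in the higher group that rose in all 3 pairs, the 8 with the largest fitted increases included 4 genes of myelin. Fitted values against libraries at 0 depend on the prior count and give no firm order. plp1b and mbpa encode the main proteins of central myelin, mpz a myelin adhesion protein and cldnk a claudin of myelinating glia, and cd59 is also expressed by such glia in zebrafish. plp1b had 436, 425 and 54 CPM in MTZ+ DMSO libraries and 0 in every MTZ- DMSO library. mbpa had 273, 65.2 and 124 CPM, mpz 80, 120.3 and 24.3 CPM, cldnk 93.3, 60 and 6.85 CPM and cd59 361, 377 and 44.6 CPM in MTZ+ DMSO libraries, and all of them had 0 counts in every MTZ- DMSO library. A floor of 3 counts per library puts the increases of the group means at least 2787-fold (plp1b), 2384-fold (cd59), 1407-fold (mbpa), 684-fold (mpz) and 488-fold (cldnk). The level of plp1b, cd59 and cldnk in MTZ+ DMSO replicate 3 was far below that in the other 2 replicates, and DESeq2 gave no adjusted p for plp1b. Expression of sox10, a factor of oligodendrocytes and neural crest, went the other way, with 18.9, 24.4 and 28.7 CPM in MTZ+ DMSO, against 88.7, 84.6 and 97.5 CPM in MTZ- DMSO. sox10 fell by 1.91 ± 0.47 on the log2 scale (edgeR adjusted p = 0.0117). The remaining 3 were fn1a (the matrix protein fibronectin, at least 299-fold higher), adamtsl7 (at least 238-fold) and epha2a (an ephrin receptor, at least 193-fold). For adamtsl7 a single library, MTZ+ DMSO replicate 2, held most of the signal, with 1.73, 61.8 and 14.6 CPM in MTZ+ DMSO libraries and 0 in MTZ- DMSO libraries. The 8 with the largest fitted decreases were SRCIN1 (an inhibitor of Src kinase), cyp2p9 (a cytochrome P450 that overlaps cyp2p7), gpr61 (an orphan receptor, overlapping gnai3), degs2 (a sphingolipid enzyme, overlapping evla), tmem38a (a channel of the endoplasmic reticulum), crhbp (a binding protein of corticotropin-releasing hormone), si:dkey-194e6.1 and CABZ01085140.1. SRCIN1 had 0 counts in all MTZ+ DMSO libraries, against 12.6, 6.04 and 15.3 CPM in MTZ- DMSO libraries, and was at least 103-fold lower. crhbp had 7.3, 1.47 and 0.192 CPM in MTZ+ DMSO, against 260.1, 234 and 124 CPM in MTZ- DMSO. crhbp fell by 6.13 ± 1.53 on the log2 scale (edgeR adjusted p = 0.0123), with a log2 fold change of -7.89 without MTZ+ DMSO replicate 1. It was not called without MTZ+ DMSO replicate 2 (log2 fold change -5.79, edgeR adjusted p = 0.0525).

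Genes of the visual cycle, through which the RPE turns all-trans retinol back into chromophore, had more lower than higher DEGs in ablated eyes. Of 27 tested members of a list of visual cycle and retinoid genes, 8 were lower DEGs and 5 higher DEGs. The lower share was 29.6% and the higher 18.5%, beside 9.14% and 14.3% of all genes tested. The median of the list on the log2 scale was -0.77 beside 0.27 for all genes. lrata, which esterifies retinol and so supplies the isomerase, had 215, 157 and 80.8 CPM in MTZ+ DMSO, against 779.8, 1659 and 1802 CPM in MTZ- DMSO. lrata fell by 3.23 ± 0.63 on the log2 scale (edgeR adjusted p = 0.00368). The opsin-like protein gene rgrb had 5894, 2216 and 3024 CPM in MTZ+ DMSO, against 13612, 16863 and 14030 CPM in MTZ- DMSO. rgrb fell by 1.999 ± 0.52 on the log2 scale (edgeR adjusted p = 0.0144). stra6, the receptor through which retinol enters the RPE, had 3562, 1703 and 2355 CPM in MTZ+ DMSO, against 6351, 6765 and 7791 CPM in MTZ- DMSO. stra6 fell by 1.46 ± 0.44 on the log2 scale (edgeR adjusted p = 0.0296). The isomerase gene rpe65a itself had 11620, 5141 and 7150 CPM in MTZ+ DMSO, against 23130, 21964 and 21234 CPM in MTZ- DMSO. rlbp1b, whose product carries retinoids within the RPE, had 21538, 6852 and 9019 CPM in MTZ+ DMSO, against 29620, 28336 and 34463 CPM in MTZ- DMSO. These genes were lower in every MTZ+ DMSO library than in any MTZ- DMSO library, but neither passed the test. The log2 fold change was -1.47 ± 0.53 for rpe65a (edgeR adjusted p = 0.0542) and -1.305 ± 0.64 for rlbp1b (edgeR adjusted p = 0.141). With only the 6 libraries in the fit rlbp1b was a DEG (log2 fold change -1.38, edgeR adjusted p = 0.0435), and without MTZ+ DMSO replicate 1 its change was -1.96. For rdh5, a retinol dehydrogenase, the log2 fold change was -1.02 ± 0.72 (edgeR adjusted p = 0.311). MTZ+ DMSO replicate 1 had the highest level of rpe65a, rlbp1b, rgrb, stra6 and rdh5 in its group. Without that replicate rpe65a was a DEG (log2 fold change -1.85, edgeR adjusted p = 0.044), as it also was with DESeq2, RLE scaling, the replicate block, the likelihood ratio test or only the 6 libraries in the fit. rgrb was not called without MTZ+ DMSO replicate 2 (edgeR adjusted p = 0.0601) or 3 (0.0545). stra6 lost its call without any one of the libraries other than MTZ+ DMSO replicate 1 (edgeR adjusted p = 0.0539 to 0.107). The list had 5 lower DEGs without MTZ+ DMSO replicate 2 or 3.

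Enzymes that break down retinoic acid moved in opposite directions within the same list. cyp26a1 was nearly absent from intact RPE and had 125, 621 and 270.0 CPM in MTZ+ DMSO, against 0.0398, 1.18 and 2.62 CPM in MTZ- DMSO. cyp26a1 rose by 8.03 ± 1.18 on the log2 scale (edgeR adjusted p = 0.000952), with a log2 fold change of 9.07 without MTZ- DMSO replicate 3. cyp26c1 had 146, 329 and 129 CPM in MTZ+ DMSO, against 10.6, 1.46 and 5.91 CPM in MTZ- DMSO. cyp26c1 rose by 5.08 ± 0.91 on the log2 scale (edgeR adjusted p = 0.00244), with a log2 fold change of 5.76 without MTZ- DMSO replicate 1. cyp26b1, which acts on the same substrate, had 5.15, 2.18 and 0.077 CPM in MTZ+ DMSO, against 60.2, 47 and 55.1 CPM in MTZ- DMSO. cyp26b1 fell by 4.46 ± 1.35 on the log2 scale (edgeR adjusted p = 0.0287), with a log2 fold change of -5.54 without MTZ+ DMSO replicate 1. It was not called without any one of 5 libraries (edgeR adjusted p = 0.0521 to 0.0902), MTZ+ DMSO replicate 1 being the exception. The groups did not overlap for any of the 3 genes, nor for 46.8% of all genes tested.

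**Figure D1:**
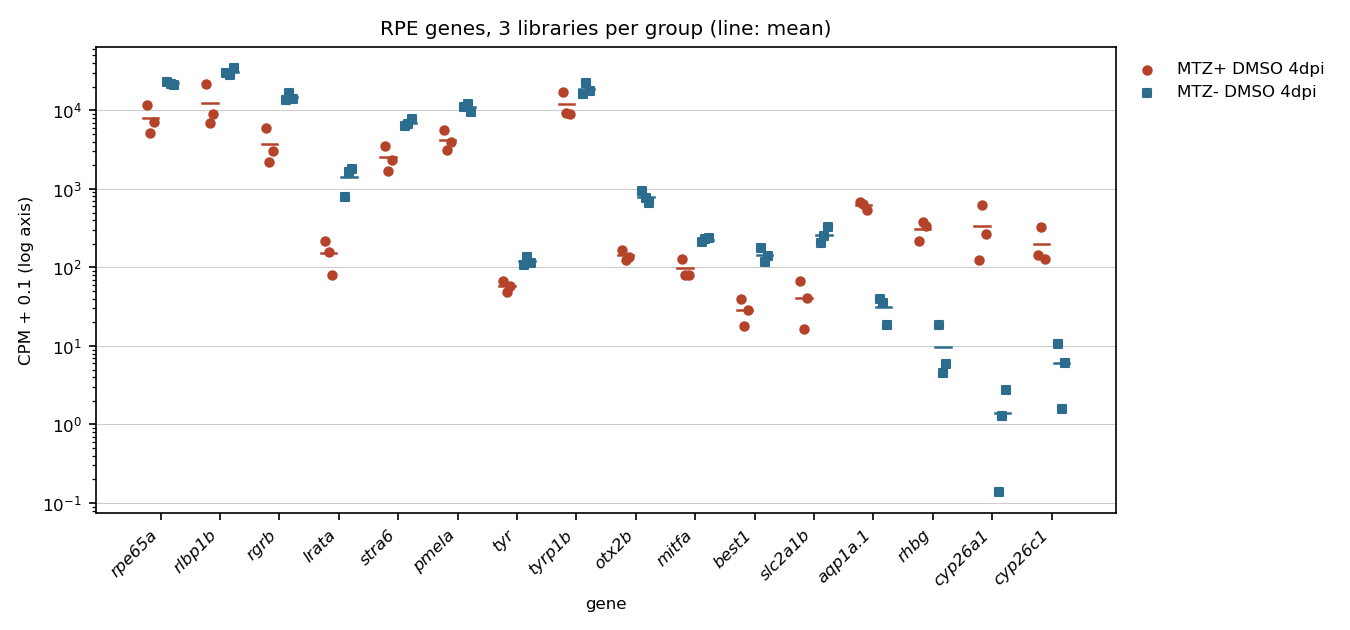
Expression of 16 RPE genes in each library, as CPM plus 0.1 on a log axis, with MTZ+ DMSO 4dpi (circles) left of MTZ- DMSO 4dpi (squares) and a line at each group mean. The first 12 genes have lower means in MTZ+ DMSO, with overlapping groups for tyrp1b, and the last 4 (aqp1a.1, rhbg, cyp26a1 and cyp26c1) are higher in all 3 MTZ+ DMSO libraries.

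Melanin genes also had more lower than higher DEGs, with changes that depended more on single libraries and on scaling. Of 23 tested melanin and melanosome genes 8 were lower and 2 higher DEGs (34.8% and 8.7%, beside 9.14% and 14.3% of all genes tested). The median log2 fold change of the list was -0.65. With library totals alone it had 3 lower and 3 higher DEGs, and without MTZ+ DMSO replicate 2 it had 2 lower. It had 3 lower without MTZ+ DMSO replicate 3 or MTZ- DMSO replicate 2, and 5 without MTZ- DMSO replicate 1. slc24a5, an ion exchanger of the melanosome, had 107, 67.5 and 88.2 CPM in MTZ+ DMSO, against 214, 324 and 222 CPM in MTZ- DMSO. slc24a5 fell by 1.53 ± 0.28 on the log2 scale (edgeR adjusted p = 0.00291), and it was a DEG under all settings. pmela, the fibril protein of melanosomes, had 5580, 3123 and 4006 CPM in MTZ+ DMSO, against 11116, 12118 and 9668 CPM in MTZ- DMSO. pmela fell by 1.37 ± 0.34 on the log2 scale (edgeR adjusted p = 0.012). It was not called with library totals alone, where the log2 change was -0.96, nor without MTZ+ DMSO replicate 2 (edgeR adjusted p = 0.0552). tyr, the rate-limiting enzyme of melanin synthesis, had 67.6, 48.3 and 58 CPM in MTZ+ DMSO, against 107, 137 and 115 CPM in MTZ- DMSO. tyr fell by 1.04 ± 0.30 on the log2 scale (edgeR adjusted p = 0.0226). The call of tyr was lost with library totals alone (log2 change -0.62) and without MTZ+ DMSO replicate 2, MTZ+ DMSO replicate 3 or MTZ- DMSO replicate 2 (edgeR adjusted p = 0.0841, 0.0616 and 0.0734). The related enzymes dct (-1.21 ± 0.46, edgeR adjusted p = 0.0656) and tyrp1b (-0.65 ± 0.44, edgeR adjusted p = 0.285) did not pass the test, but dct was a DEG with DESeq2 (adjusted p = 0.0173), the likelihood ratio test (0.0312) and only the 6 libraries (0.0121). The paralog pmelb was on the other side of 0, with 3076, 2392 and 1884 CPM in MTZ+ DMSO, against 907, 1467 and 1344 CPM in MTZ- DMSO. pmelb did not pass the test (log2 fold change 0.98 ± 0.41, edgeR adjusted p = 0.0931), but was a higher DEG with library totals alone (log2 change 1.397). Pigment was suppressed chemically in both groups before ablation, so these transcripts do not measure pigment.

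Among transcription factors, several that act in the RPE fell and several of the eye field and retinal progenitors rose. The 30 tested factors comprised 9 higher and 8 lower DEGs (30% and 26.7%, beside 14.3% and 9.14% of all genes tested). With library totals alone 12 were higher and 3 lower. The summed level of the 30 factors was lower, at 1061 to 1177 CPM in MTZ+ DMSO and 1737 to 1987 CPM in MTZ- DMSO. otx2b, a factor needed for RPE identity (chromosome 17, 44244659 to 44249720), had 169, 123 and 135 CPM in MTZ+ DMSO, against 948, 768 and 659 CPM in MTZ- DMSO. otx2b fell by 2.47 ± 0.31 on the log2 scale (edgeR adjusted p = 0.000488). sox9b, which acts with it on RPE genes in mammals, had 27.6, 35.2 and 24.5 CPM in MTZ+ DMSO, against 106, 200.1 and 151 CPM in MTZ- DMSO. sox9b fell by 2.39 ± 0.41 on the log2 scale (edgeR adjusted p = 0.00197). mitfa, the melanocyte and RPE factor, had 129.5, 80 and 80.9 CPM in MTZ+ DMSO, against 209, 233 and 238 CPM in MTZ- DMSO. mitfa fell by 1.23 ± 0.32 on the log2 scale (edgeR adjusted p = 0.0147). The call of mitfa was lost with library totals alone (log2 change -0.81) and without MTZ+ DMSO replicate 2 or 3 (edgeR adjusted p = 0.0607 and 0.0567). The eye-field gene rx1 had 70.6, 73.3 and 67.2 CPM in MTZ+ DMSO, against 4.78, 1.6 and 6.57 CPM in MTZ- DMSO. rx1 rose by 4.03 ± 0.79 on the log2 scale (edgeR adjusted p = 0.00372). pax6b had 91.8, 112 and 80.9 CPM in MTZ+ DMSO, against 24.5, 15 and 31.7 CPM in MTZ- DMSO. pax6b rose by 1.999 ± 0.28 on the log2 scale (edgeR adjusted p = 0.000807). six6b had 50.1, 45.4 and 27 CPM in MTZ+ DMSO, against 6.61, 2.39 and 4.93 CPM in MTZ- DMSO. six6b rose by 3.14 ± 0.58 on the log2 scale (edgeR adjusted p = 0.00294). six3b and sox2 were also higher (8.93-fold and 5.55-fold). Without MTZ+ DMSO replicate 2 the list had 4 lower DEGs. Markers of retinal cell types were higher in the same libraries, as given with the marker lists, and their part in these increases was not tested.

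Transporters of the RPE split into a group that was lower and a group that was higher, with 9 and 11 DEGs of 28 tested (6 and 12 with library totals alone). As shares, 32.1% were lower and 39.3% higher DEGs, beside 9.14% and 14.3% of all genes tested. On the lower side, best1, a chloride channel of the basolateral membrane, had 40, 17.6 and 28.7 CPM in MTZ+ DMSO, against 179, 116 and 139 CPM in MTZ- DMSO. best1 fell by 2.33 ± 0.47 on the log2 scale (edgeR adjusted p = 0.00459). The glucose transporter gene slc2a1b had 66.5, 16.5 and 40.6 CPM in MTZ+ DMSO, against 207, 250.4 and 326 CPM in MTZ- DMSO. slc2a1b fell by 2.67 ± 0.58 on the log2 scale (edgeR adjusted p = 0.00602). The taurine transporter gene slc6a6a had 13.4, 4.88 and 14.7 CPM in MTZ+ DMSO, against 94.5, 87.5 and 102 CPM in MTZ- DMSO. slc6a6a fell by 3.11 ± 0.70 on the log2 scale (edgeR adjusted p = 0.00731). The sodium pump subunits atp1a1a.1 and atp1b1a were 2.51-fold and 2.46-fold lower, while the subunit atp1a1b was 28.6-fold higher. The calls of atp1a1a.1 and atp1b1a were lost with library totals alone (log2 change -0.91 and -0.89). The call of atp1b1a was also lost without MTZ+ DMSO replicate 2 or 3 or MTZ- DMSO replicate 1 or 2 (edgeR adjusted p = 0.0548 to 0.0863). atp1a1a.1 overlaps its near copy atp1a1a.2, so the assignment of its reads is uncertain. On the higher side, the water channel gene aqp1a.1 had 681, 646 and 545 CPM in MTZ+ DMSO, against 39.2, 35.3 and 18.6 CPM in MTZ- DMSO. aqp1a.1 rose by 4.33 ± 0.70 on the log2 scale (edgeR adjusted p = 0.00146). rhbg, an ammonium transporter, had 214, 384 and 334 CPM in MTZ+ DMSO, against 18.1, 4.47 and 5.77 CPM in MTZ- DMSO. rhbg rose by 5.04 ± 0.63 on the log2 scale (edgeR adjusted p = 0.000488), with a log2 fold change of 5.92 without MTZ- DMSO replicate 1. The carbonic anhydrase gene cahz had 261, 451 and 322 CPM in MTZ+ DMSO, against 6.65, 14 and 2.03 CPM in MTZ- DMSO. cahz rose by 5.51 ± 0.87 on the log2 scale (edgeR adjusted p = 0.00136), with a log2 fold change of 6.31 without MTZ- DMSO replicate 2. Another, ca14, had 137, 199 and 119 CPM in MTZ+ DMSO, against 9.6, 2.22 and 2.76 CPM in MTZ- DMSO. ca14 rose by 4.97 ± 0.76 on the log2 scale (edgeR adjusted p = 0.0012), with a log2 fold change of 5.92 without MTZ- DMSO replicate 1. The list's lower DEGs numbered 5 without MTZ+ DMSO replicate 2 or 3 or MTZ- DMSO replicate 1 or 2. kcnj13, the potassium channel of the apical membrane, had overlapping groups (-1.202 ± 0.83, edgeR adjusted p = 0.3).

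Genes for the uptake of outer segments showed no common direction by gene, but their summed level was lower. It was 1916 to 2983 CPM in MTZ+ DMSO and 4572 to 5554 CPM in MTZ- DMSO. Of 20 tested, 3 were higher and 5 lower DEGs (15% and 25%, beside 14.3% and 9.14% of all genes tested). The median of -0.11 changed sign with library totals alone (0.32), where 7 were higher and 2 lower. With only the 6 libraries in the fit 5 were higher. The receptor gene mertka had 53.7, 40 and 44.8 CPM in MTZ+ DMSO and 64.7, 96.8 and 102 CPM in MTZ- DMSO, a change of -0.93 ± 0.28 that was under the fold limit (edgeR adjusted p = 0.0297). It passed the limit without MTZ+ DMSO replicate 1 or MTZ- DMSO replicate 1 (log2 change -1.06 and -1.11). itgb5, part of the integrin that binds outer segments, had 37.3, 52.2 and 36.2 CPM in MTZ+ DMSO, against 2.63, 4.99 and 0.664 CPM in MTZ- DMSO. itgb5 rose by 3.92 ± 0.64 on the log2 scale (edgeR adjusted p = 0.00161), with a log2 fold change of 4.67 without MTZ- DMSO replicate 2. The myosin 7A paralogs, which move organelles in RPE, went in opposite directions. myo7aa had 6.79, 14.8 and 16.7 CPM in MTZ+ DMSO, against 0.358, 0.208 and 0.35 CPM in MTZ- DMSO. myo7aa rose by 5.37 ± 0.68 on the log2 scale (edgeR adjusted p = 0.000498). myo7ab had 21.5, 21.5 and 28.5 CPM in MTZ+ DMSO, against 46.6, 69.7 and 61.5 CPM in MTZ- DMSO. myo7ab fell by 1.31 ± 0.33 on the log2 scale (edgeR adjusted p = 0.0121). The call of myo7ab was lost with library totals alone (log2 change -0.87), and the lower DEGs of the list numbered 3 without MTZ+ DMSO replicate 2 or 3 or MTZ- DMSO replicate 3.

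Junction and polarity genes had 6 higher and 2 lower DEGs of 29 (20.7% and 6.9%, beside 14.3% and 9.14% of all genes tested). Their median was 0.18, and their summed level overlapped between the groups (1490 to 1652 CPM in MTZ+ DMSO and 1381 to 1602 CPM in MTZ- DMSO). cdh1, E-cadherin of epithelia, was close to absent in intact RPE and had 82.7, 92.7 and 107 CPM in MTZ+ DMSO, against 6.41, 0.971 and 2.55 CPM in MTZ- DMSO. cdh1 rose by 4.83 ± 0.92 on the log2 scale (edgeR adjusted p = 0.00324), with a log2 fold change of 5.73 without MTZ- DMSO replicate 1. A lower DEG was crb1, a polarity protein of the apical membrane, with 3.97, 1.15 and 3.19 CPM in MTZ+ DMSO, against 28.6, 47.1 and 40.2 CPM in MTZ- DMSO. crb1 fell by 3.81 ± 0.89 on the log2 scale (edgeR adjusted p = 0.00873). N-cadherin, cdh2, which joins RPE cells, had 178, 298 and 217 CPM in MTZ+ DMSO, against 125, 133 and 153 CPM in MTZ- DMSO. cdh2 did not pass the test (log2 fold change 0.76 ± 0.22, edgeR adjusted p = 0.0248), being under the fold limit, but was a DEG with library totals alone (log2 change 1.21). The list had 4 lower DEGs without MTZ+ DMSO replicate 1.

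Extracellular matrix genes rose more often than they fell, with 11 higher DEGs and 1 lower DEG of 42 tested and a median of 1.36. These are 26.2% and 2.38%, beside 14.3% and 9.14% of all genes tested. The summed level of the list did not rise, with 3907, 2701 and 2755 CPM in MTZ+ DMSO, against 3645, 4295 and 3927 CPM in MTZ- DMSO. bgnb, the proteoglycan biglycan, had 71.6, 105 and 67.5 CPM in MTZ+ DMSO libraries and 0, 0.0694 and 0 CPM in MTZ- DMSO libraries, at least 745-fold higher. col15a1b, a collagen of basement membranes, had 98.1, 150.3 and 143 CPM in MTZ+ DMSO, against 6.53, 9.92 and 5.84 CPM in MTZ- DMSO. col15a1b rose by 4.13 ± 0.49 on the log2 scale (edgeR adjusted p = 0.000359). The neighbouring collagen IV genes col4a5 and col4a6, which form the basement membrane network, were 3.88-fold and 3.55-fold higher. The membrane-bound matrix protease gene mmp14b had 8.16, 11.9 and 5.7 CPM in MTZ+ DMSO, against 0.119, 0.139 and 0.419 CPM in MTZ- DMSO. mmp14b rose by 5.22 ± 0.70 on the log2 scale (edgeR adjusted p = 0.000642), with a log2 fold change of 6.004 without MTZ- DMSO replicate 3. mmp9, a gelatinase of wounds, had 30.8, 28.6 and 2.69 CPM in MTZ+ DMSO, against 0.279, 0.0347 and 0 CPM in MTZ- DMSO (edgeR adjusted p = 0.00706), with replicate 3 of MTZ+ DMSO far below the other 2. The lower DEG was col8a2, a collagen of Bruch's membrane and cornea, with 14.5, 6.66 and 6.93 CPM in MTZ+ DMSO, against 67.5, 63.6 and 64.9 CPM in MTZ- DMSO. col8a2 fell by 2.81 ± 0.52 on the log2 scale (edgeR adjusted p = 0.0028). The fitted folds of mmp14b and mmp9 rest on MTZ- DMSO libraries close to 0. With 1 library left out they ran from 7.04 to 9.91 on the log2 scale for mmp9 (highest without MTZ- DMSO replicate 1) and from 4.91 to 6.004 for mmp14b (highest without MTZ- DMSO replicate 3).

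Cell cycle genes were among the most uniformly higher groups. Of 47 tested genes of mitosis 25 were higher DEGs and 1 was lower. Of 47 tested genes of DNA replication and the G1/S step 22 were higher and 1 lower. These are shares of 53.2% and 46.8% higher beside 14.3% of all genes tested. With RPKM in place of TPM for the expression minimum 14 mitosis genes were higher, and with only the 6 libraries in the fit 13 replication genes were. The median log2 fold change was 4.44 for mitosis (4.00 with genes at the floor set to their bound) and 2.39 for replication (2.01 in that way). mki67, the nuclear antigen Ki-67 of cycling cells (chromosome 12, 10366617 to 10381282), had 7.75, 4.75 and 7.12 CPM in MTZ+ DMSO, against 0, 0 and 0.105 CPM in MTZ- DMSO. It was at least 59.7-fold higher (edgeR adjusted p = 0.000769). The ubiquitin-conjugating enzyme gene ube2c_1, which acts in mitotic exit, had 31.6, 11 and 10.8 CPM in MTZ+ DMSO, against 0.0398, 0 and 0 CPM in MTZ- DMSO, at least 162-fold. nusap1, a spindle protein, had 6.98, 5.3 and 11.9 CPM in MTZ+ DMSO, against 0, 0 and 0.105 CPM in MTZ- DMSO, at least 73.5-fold. The spindle motor gene kif11 had 6.29, 2.52 and 4.97 CPM in MTZ+ DMSO, against 0.119, 0.0694 and 0.0699 CPM in MTZ- DMSO, at least 41.9-fold. The mitotic kinase gene cdk1 had 17.9, 9.83 and 20.3 CPM in MTZ+ DMSO, against 0, 0.867 and 0 CPM in MTZ- DMSO (edgeR adjusted p = 0.00391). Levels of these genes were thus low to moderate in each MTZ+ DMSO library and at or near 0 counts in each MTZ- DMSO library. Their groups did not overlap, nor did those of 46.8% of all genes tested.

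Replication genes followed the same order. mcm2 and mcm5, subunits of the replicative helicase, were both higher. mcm2 had 18.8, 13.7 and 13.7 CPM in MTZ+ DMSO, against 0, 0 and 0.594 CPM in MTZ- DMSO (edgeR adjusted p = 0.00177). mcm5 had 16.5, 13.5 and 9.89 CPM in MTZ+ DMSO, against 0.797, 0 and 0.035 CPM in MTZ- DMSO (edgeR adjusted p = 0.00365). ccne2, cyclin E2 of the G1/S step, had 8.21, 19.4 and 13.6 CPM in MTZ+ DMSO, against 0, 0.0347 and 0.14 CPM in MTZ- DMSO (edgeR adjusted p = 0.000837). pcna, the sliding clamp, was well expressed in intact RPE and had 166, 163 and 155 CPM in MTZ+ DMSO, against 64.2, 36.9 and 58.3 CPM in MTZ- DMSO. pcna rose by 1.603 ± 0.34 on the log2 scale (edgeR adjusted p = 0.00569). The exceptions were foxm1, a transcription factor of mitotic genes, with 8.21, 6.16 and 13.7 CPM in MTZ+ DMSO, against 16, 41.6 and 35.3 CPM in MTZ- DMSO, and dhfr, an enzyme of nucleotide synthesis. foxm1 fell by 1.73 ± 0.56 on the log2 scale (edgeR adjusted p = 0.0381). dhfr had 11, 4.56 and 9.55 CPM in MTZ+ DMSO, against 33.5, 15.6 and 17.3 CPM in MTZ- DMSO. dhfr fell by 1.405 ± 0.45 on the log2 scale (edgeR adjusted p = 0.0354). The call of foxm1 was lost with the replicate block, with library totals alone and without MTZ+ DMSO replicate 1 or 2 or MTZ- DMSO replicate 2 or 3 (edgeR adjusted p = 0.0868 to 0.124). That of dhfr was lost with library totals alone and without MTZ+ DMSO replicate 2 or 3 or MTZ- DMSO replicate 1 (edgeR adjusted p = 0.069 to 0.149).

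**Figure D2:**
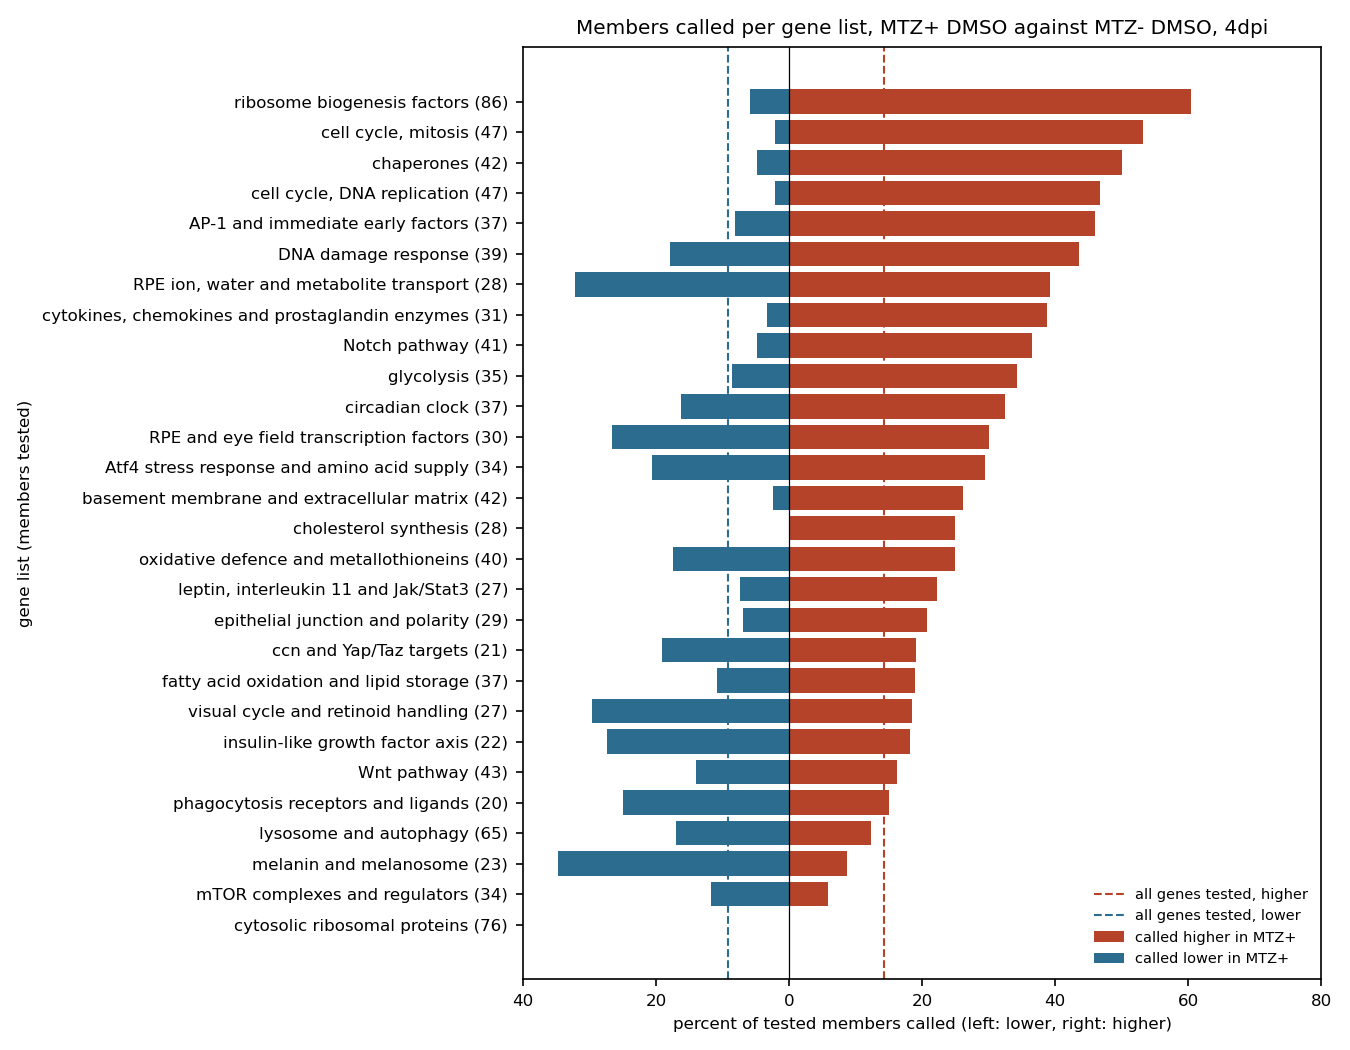
Percent of the tested members of each of 28 gene lists that were DEGs, with higher expression in MTZ+ DMSO to the right and lower expression to the left, and the number tested in parentheses. Dashed lines mark all genes tested (14.3% higher, 9.14% lower). Ribosome biogenesis, both cell cycle lists and chaperones reach farthest to the right, and the melanin, transport and visual cycle lists farthest to the left.

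Leptin and interleukin 11 genes, whose receptors signal through Jak kinases and Stat3, were detected in ablated eyes and not, at this depth, in unablated ones. A floor of 3 counts stands for 0.104 to 0.119 CPM in an MTZ- DMSO library and covers counting error only. Each bound sets the MTZ+ DMSO group mean against that floor, and single libraries can lie well under it. lepb, a leptin, had 1.69, 30.7 and 2.19 CPM in MTZ+ DMSO libraries and 0 counts in all MTZ- DMSO libraries, at least 105-fold higher (edgeR adjusted p = 0.00842). il11a had 0.866, 7.26 and 3.77 CPM and il11b 3.47, 17.2 and 4.62 CPM in MTZ+ DMSO libraries. There were 0 counts of both in MTZ- DMSO libraries (at least 36.2-fold and 77.1-fold). In all 3 of these genes MTZ+ DMSO replicate 2 was the highest, and all 3 were still DEGs without it (edgeR adjusted p = 0.0162, 0.0203 and 0.0167). Of the feedback inhibitor genes in the list, only socs3b and cish were higher DEGs. socs3b had 125, 137 and 89.3 CPM in MTZ+ DMSO, against 10.4, 14 and 15.5 CPM in MTZ- DMSO. socs3b rose by 3.14 ± 0.40 on the log2 scale (edgeR adjusted p = 0.000527). cish had 68.9, 50.8 and 56 CPM in MTZ+ DMSO, against 27.3, 15.9 and 9.05 CPM in MTZ- DMSO. cish rose by 1.75 ± 0.43 on the log2 scale (edgeR adjusted p = 0.0106). The signal transducers showed no such rise. stat3 had a log2 fold change of 0.65 ± 0.32 (edgeR adjusted p = 0.151) and was a DEG with library totals alone at log2 1.09. stat5b had 4.65, 7.08 and 10.8 CPM in MTZ+ DMSO, against 21.3, 20.8 and 18.8 CPM in MTZ- DMSO. stat5b fell by 1.44 ± 0.31 on the log2 scale (edgeR adjusted p = 0.00593), but was not a DEG with library totals alone. lepr, the leptin receptor gene, had 27.5, 24 and 34.7 CPM in MTZ+ DMSO and 25.8, 44.8 and 25.5 CPM in MTZ- DMSO, with overlapping groups. Of the 27 tested genes of this list 6 were higher and 2 lower DEGs, and 12 higher and 0 lower with library totals alone. The shares of 22.2% and 7.41% compare with 14.3% and 9.14% of all genes tested.

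Cytokine, chemokine and prostaglandin genes had 12 higher DEGs and 1 lower DEG of 31 tested. These are 38.7% and 3.23%, beside 14.3% and 9.14% of all genes tested. Their median was 2.74 (2.199 with genes at the floor set to their bound). The chemokine gene cxcl18b had 211, 376 and 252 CPM in MTZ+ DMSO, against 8.05, 17.3 and 14.1 CPM in MTZ- DMSO. cxcl18b rose by 4.41 ± 0.52 on the log2 scale (edgeR adjusted p = 0.000359). il34, a ligand of the macrophage receptor Csf1r, had 27.7, 39 and 24.2 CPM in MTZ+ DMSO, against 0, 0.902 and 0 CPM in MTZ- DMSO (edgeR adjusted p = 0.00554), 1 MTZ- DMSO library holding all of the counts in that group. The heparin-binding growth factors mdka and mdkb, which rise in regenerating retina of fish, were both higher. mdka had 252, 321 and 295 CPM in MTZ+ DMSO, against 22.3, 14.7 and 17.8 CPM in MTZ- DMSO. mdka rose by 3.99 ± 0.46 on the log2 scale (edgeR adjusted p = 0.000339). mdkb had 219.8, 298 and 152 CPM in MTZ+ DMSO, against 7.37, 7.01 and 7.44 CPM in MTZ- DMSO. mdkb rose by 4.94 ± 0.69 on the log2 scale (edgeR adjusted p = 0.000774). ptgesl, a gene like prostaglandin E synthase, had 30.3, 35.9 and 43.1 CPM in MTZ+ DMSO, against 5.22, 5.1 and 6.05 CPM in MTZ- DMSO. ptgesl rose by 2.74 ± 0.25 on the log2 scale (edgeR adjusted p = 0.000206). cxcl8a, a neutrophil chemokine, had 6.43, 15.8 and 13.4 CPM in MTZ+ DMSO, against 0.797, 0.347 and 0.769 CPM in MTZ- DMSO. cxcl8a rose by 4.21 ± 1.45 on the log2 scale (edgeR adjusted p = 0.0474). cxcl18a.1 had 2.96, 3.07 and 2.16 CPM in MTZ+ DMSO, against 0.159, 0 and 0.0699 CPM in MTZ- DMSO. cxcl18a.1 rose by 5.11 ± 1.37 on the log2 scale (edgeR adjusted p = 0.0208), with a log2 fold change of 6.13 without MTZ- DMSO replicate 1. cxcl8a lost its call without any 1 of the 6 libraries (edgeR adjusted p = 0.058 to 0.133). cxcl18a.1, which overlaps rassf4a, lost it without MTZ+ DMSO replicate 2 or MTZ- DMSO replicate 3 (edgeR adjusted p = 0.0512 and 0.0621). il1b had overlapping groups, with 6.52, 2.7 and 0.0385 CPM in MTZ+ DMSO and 0.677, 0.0694 and 1.82 CPM in MTZ- DMSO (edgeR adjusted p = 0.382). The list had 7 higher DEGs without MTZ+ DMSO replicate 2 and 7 without MTZ- DMSO replicate 3.

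Of 37 tested AP-1 and immediate early factors 17 were higher and 3 lower DEGs (45.9% and 8.11%, beside 14.3% and 9.14% of all genes tested). Their summed level overlapped between the groups, at 3676 to 4524 CPM in MTZ+ DMSO and 2583 to 6427 CPM in MTZ- DMSO. mych, a Myc factor of growth, had 189, 281 and 248 CPM in MTZ+ DMSO, against 15.095, 6.1 and 12 CPM in MTZ- DMSO. mych rose by 4.44 ± 0.55 on the log2 scale (edgeR adjusted p = 0.000459). The related mycb had 52.1, 64.8 and 34.7 CPM in MTZ+ DMSO, against 8.52, 7.49 and 9.26 CPM in MTZ- DMSO. mycb rose by 2.58 ± 0.26 on the log2 scale (edgeR adjusted p = 0.000216). fosl1a, an AP-1 subunit of wounded epithelia, had 145, 416 and 309 CPM in MTZ+ DMSO, against 21.5, 1.63 and 22.1 CPM in MTZ- DMSO. fosl1a rose by 4.26 ± 0.87 on the log2 scale (edgeR adjusted p = 0.00465). cebpb had 105, 100.1 and 52.618 CPM in MTZ+ DMSO, against 24.1, 7.42 and 22.3 CPM in MTZ- DMSO. cebpb rose by 2.26 ± 0.46 on the log2 scale (edgeR adjusted p = 0.00453). atf3, a stress factor, had 43.5, 100.1 and 74.3 CPM in MTZ+ DMSO, against 2.63, 0 and 6.4 CPM in MTZ- DMSO. atf3 rose by 4.59 ± 1.29 on the log2 scale (edgeR adjusted p = 0.0205), with a log2 fold change of 5.803 without MTZ- DMSO replicate 3. It was not called without MTZ+ DMSO replicate 2 or MTZ- DMSO replicate 1 (edgeR adjusted p = 0.0508 and 0.0708). egr1, an immediate early gene, went the other way, with 109, 64.3 and 142 CPM in MTZ+ DMSO, against 619, 372 and 851 CPM in MTZ- DMSO. egr1 fell by 2.55 ± 0.47 on the log2 scale (edgeR adjusted p = 0.00294). dusp6, a phosphatase that turns off Erk, had 189, 157 and 141 CPM in MTZ+ DMSO, against 408, 244 and 365 CPM in MTZ- DMSO. dusp6 fell by 1.07 ± 0.25 on the log2 scale (edgeR adjusted p = 0.00844). It was not a DEG with library totals alone (log2 change -0.64), nor without MTZ+ DMSO replicate 3 or MTZ- DMSO replicate 1, where the change was under the fold limit (log2 -0.98 and -0.91). Without MTZ+ DMSO replicate 2 or MTZ- DMSO replicate 1 the list had 11 higher DEGs.

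The list of Yap and Taz genes had 4 higher and 4 lower DEGs of 21 (5 and 1 with library totals alone). The share was 19.05% in each direction, beside 14.3% higher and 9.14% lower of all genes tested. The lower count depended on the scaling and on single libraries, so the list gives no firm direction. ccn2a, connective tissue growth factor, was abundant in intact RPE and had 1547, 835 and 774 CPM in MTZ+ DMSO, against 6937, 4229 and 3589 CPM in MTZ- DMSO. ccn2a fell by 2.23 ± 0.44 on the log2 scale (edgeR adjusted p = 0.00391). ccn1l1 and ankrd1a had 0.0456, 8.55 and 13.6 CPM and 1.37, 0.97 and 7.04 CPM in MTZ+ DMSO libraries and 0 counts in MTZ- DMSO libraries. The floor makes the increase of the group mean at least 67.7-fold for ccn1l1, with 1 of 3 MTZ+ DMSO libraries nearly without it. For ankrd1a, which overlaps kif20ba, it is at least 28.6-fold. Lower DEGs of the list numbered 2 without MTZ+ DMSO replicate 1 or 2 or MTZ- DMSO replicate 1 or 3.

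**Figure D3:**
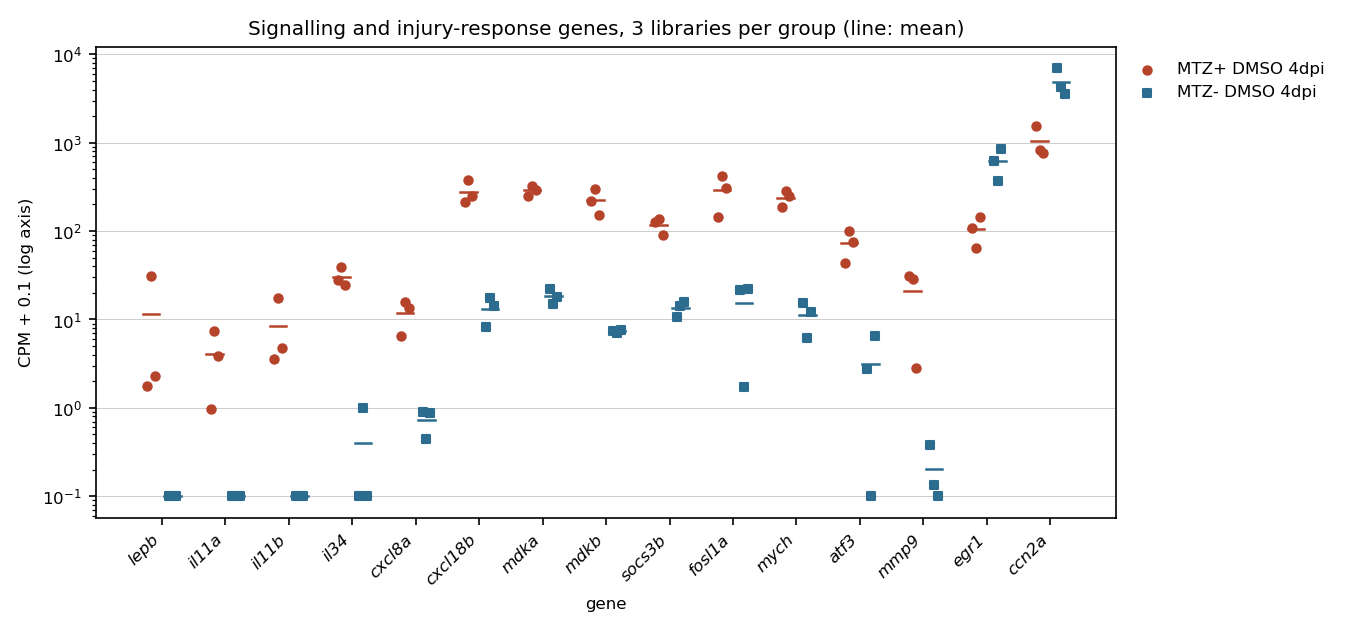
Expression of 15 signalling and injury-response genes in each library, as CPM plus 0.1 on a log axis, with MTZ+ DMSO 4dpi (circles) left of MTZ- DMSO 4dpi (squares) and a line at each group mean. The first 13 genes are higher in all 3 MTZ+ DMSO libraries, with lepb, il11a and il11b at 0 counts in MTZ- DMSO, and egr1 and ccn2a are lower.

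Notch pathway genes, which act between neighbouring cells and maintain progenitors, had 15 higher and 2 lower DEGs of 41 tested. These are 36.6% and 4.88%, beside 14.3% and 9.14% of all genes tested. Their median was 2.34, and some marker lists with few DEGs had medians of nearly that size. notch3 had 35.3, 33.9 and 25.8 CPM in MTZ+ DMSO, against 3.62, 3.23 and 4.26 CPM in MTZ- DMSO. notch3 rose by 3.09 ± 0.38 on the log2 scale (edgeR adjusted p = 0.000417). The target gene her15.1 had 49.6, 76.9 and 42.1 CPM in MTZ+ DMSO, against 3.62, 1.56 and 0.944 CPM in MTZ- DMSO. her15.1 rose by 4.79 ± 0.69 on the log2 scale (edgeR adjusted p = 0.000893), with a log2 fold change of 5.48 without MTZ- DMSO replicate 1. hey1, another target, had 12.9, 20.7 and 21.9 CPM in MTZ+ DMSO, against 0.757, 0.52 and 0.489 CPM in MTZ- DMSO. hey1 rose by 4.97 ± 0.88 on the log2 scale (edgeR adjusted p = 0.00233). lfng, which modifies Notch receptors, had 135, 126 and 120.0 CPM in MTZ+ DMSO, against 36.7, 12.3 and 23 CPM in MTZ- DMSO. lfng rose by 2.403 ± 0.39 on the log2 scale (edgeR adjusted p = 0.00147). The ligand gene dlc had 7.8, 4.14 and 3.08 CPM in MTZ+ DMSO, against 0, 0 and 0.175 CPM in MTZ- DMSO (edgeR adjusted p = 0.00474). ascl1a, a proneural factor of fish Müller glia that reprogram after injury, had 30.8, 30.4 and 25.3 CPM in MTZ+ DMSO, against 2.47, 0 and 1.22 CPM in MTZ- DMSO. ascl1a rose by 4.55 ± 1.34 on the log2 scale (edgeR adjusted p = 0.0254), with a log2 fold change of 5.55 without MTZ- DMSO replicate 1. Its call was lost without MTZ+ DMSO replicate 2 or MTZ- DMSO replicate 3 (edgeR adjusted p = 0.0547 and 0.0725). Wnt pathway genes had 7 higher and 6 lower DEGs of 43 (16.3% and 14.0%, beside 14.3% and 9.14% of all genes tested). With library totals alone the counts were 10 and 4. The median was 0.49, and 0.08 with genes at the floor set to their bound. dkk1b, a secreted Wnt inhibitor, had 1.09, 14.9 and 15.6 CPM in MTZ+ DMSO libraries and 0 counts in MTZ- DMSO libraries, at least 96.3-fold higher. axin2, a common target of the pathway, had 15.6, 23.7 and 23.7 CPM in MTZ+ DMSO, against 43.2, 33.2 and 41.8 CPM in MTZ- DMSO. The change of -0.91 ± 0.25 was just under the fold limit (edgeR adjusted p = 0.0176). It passed the limit without MTZ+ DMSO replicate 2 or 3 or MTZ- DMSO replicate 2 (log2 change -1.01, -1.01 and -1.02).

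Of the 34 genes of the mTOR complexes and their regulators 2 were higher and 4 lower DEGs, near or under the shares of all genes, and the median of -0.34 was 0.09 with library totals alone. mtor itself, which overlaps angptl7, had 31.1, 27.2 and 26 CPM in MTZ+ DMSO, against 40.7, 29.1 and 30.8 CPM in MTZ- DMSO, with overlapping groups. mtor did not pass the test (log2 fold change -0.26 ± 0.29, edgeR adjusted p = 0.542). eif4ebp1, the translation repressor that mTOR phosphorylates, had 247, 322 and 318 CPM in MTZ+ DMSO, against 76.3, 106 and 88.1 CPM in MTZ- DMSO. eif4ebp1 rose by 1.71 ± 0.24 on the log2 scale (edgeR adjusted p = 0.000837). tsc2 and akt1s1, which encode inhibitors of the kinase, were 2 of the 4 lower DEGs. The list also names other inhibitors, such as tsc1a and deptor, whose values are not given here. The 2 genes therefore give no direction for inhibitors as a set. tsc2, which overlaps CABZ01067150.2, had 43.4, 16.5 and 26.4 CPM in MTZ+ DMSO, against 74.5, 91.7 and 72 CPM in MTZ- DMSO. tsc2 fell by 1.47 ± 0.31 on the log2 scale (edgeR adjusted p = 0.0054). akt1s1 had 127, 56.1 and 82.5 CPM in MTZ+ DMSO, against 433, 309 and 195 CPM in MTZ- DMSO. akt1s1 fell by 1.82 ± 0.40 on the log2 scale (edgeR adjusted p = 0.00662). Insulin-like growth factor genes had 4 higher and 6 lower DEGs of 22 (4 and 1 with library totals alone). The higher share was 18.2% and the lower 27.3%, beside 14.3% and 9.14% of all genes tested. irs2b, an adaptor of the insulin receptor, was 2.55-fold lower (log2 change -1.35, and -0.91 with library totals alone, where it was not a DEG). stc2a, a secreted inhibitor of the axis, had 23.9, 29 and 18.4 CPM in MTZ+ DMSO, against 83.8, 114 and 101 CPM in MTZ- DMSO. stc2a fell by 2.07 ± 0.39 on the log2 scale (edgeR adjusted p = 0.00317). Of 34 genes that answer amino acid shortage through Atf4, 29.4% were higher DEGs and 20.6% lower, beside 14.3% and 9.14% of all genes tested. The higher genes numbered 10 and the lower 7 (12 and 4 with library totals alone). Among these psat1, of serine synthesis, had 116, 119.8 and 122 CPM in MTZ+ DMSO, against 18.3, 14.9 and 27.7 CPM in MTZ- DMSO. psat1 rose by 2.55 ± 0.26 on the log2 scale (edgeR adjusted p = 0.000216). The pseudokinase gene trib3 had 138, 253 and 154 CPM in MTZ+ DMSO, against 28.8, 22.3 and 36.4 CPM in MTZ- DMSO. trib3 rose by 2.64 ± 0.30 on the log2 scale (edgeR adjusted p = 0.00034). In contrast slc7a3a, an arginine transporter, had 159, 108 and 123 CPM in MTZ+ DMSO, against 543, 429 and 358 CPM in MTZ- DMSO. slc7a3a fell by 1.77 ± 0.26 on the log2 scale (edgeR adjusted p = 0.000887).

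Ribosome biogenesis factors had a median of 1.35, with 60.5% higher DEGs and 5.81% lower, beside 14.3% and 9.14% of all genes tested. Of 86 tested, 52 were higher DEGs and 5 lower (63 and 1 with library totals alone). The nucleolar protein genes nop58, fbl and npm1a, which act in the making of ribosomes, were among them. nop58 had 94.5, 160.4 and 133 CPM in MTZ+ DMSO, against 17.4, 15.3 and 22.1 CPM in MTZ- DMSO. nop58 rose by 2.82 ± 0.35 on the log2 scale (edgeR adjusted p = 0.000488). fbl had 181, 301 and 268 CPM in MTZ+ DMSO, against 59.5, 40.2 and 61.4 CPM in MTZ- DMSO. fbl rose by 2.22 ± 0.32 on the log2 scale (edgeR adjusted p = 0.000928). npm1a had 403, 754 and 467 CPM in MTZ+ DMSO, against 67.5, 39.5 and 38.1 CPM in MTZ- DMSO. npm1a rose by 3.48 ± 0.49 on the log2 scale (edgeR adjusted p = 0.000794). Lower DEGs included nsa2, of the large subunit, with 394, 236 and 249 CPM in MTZ+ DMSO, against 1022, 949 and 840.3 CPM in MTZ- DMSO. nsa2 fell by 1.68 ± 0.21 on the log2 scale (edgeR adjusted p = 0.000489). gtpbp4, a nucleolar GTPase, had 261, 204 and 185 CPM in MTZ+ DMSO, against 526, 503 and 414 CPM in MTZ- DMSO. gtpbp4 fell by 1.15 ± 0.19 on the log2 scale (edgeR adjusted p = 0.00149), but was not a DEG with library totals alone (log2 change -0.73). nop58 overlaps a neighbouring gene, and nsa2 overlaps spout1. In contrast, 0 of 76 cytosolic ribosomal protein genes were DEGs in the edgeR fit, with a median of 0.13. At an unadjusted p under 0.05 there were 9 higher and 3 lower, and DESeq2 called 0 higher and 1 lower. Library totals alone gave 4 higher DEGs, as did leaving out MTZ+ DMSO replicate 3. Without MTZ+ DMSO replicate 2 or MTZ- DMSO replicate 2 the biogenesis list had 33 higher DEGs.

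Chaperone genes had 21 higher and 2 lower DEGs of 42, with a median of 1.25. The higher share was 50% and the lower 4.76%, beside 14.3% and 9.14% of all genes tested. hspa5, the main chaperone of the endoplasmic reticulum, had 180.0, 363 and 291 CPM in MTZ+ DMSO, against 15, 11.3 and 32.4 CPM in MTZ- DMSO. hspa5 rose by 3.83 ± 0.45 on the log2 scale (edgeR adjusted p = 0.000365). The mitochondrial chaperone gene hspd1 had 46.5, 88.6 and 66 CPM in MTZ+ DMSO, against 4.3, 1.67 and 10.9 CPM in MTZ- DMSO. hspd1 rose by 3.57 ± 0.68 on the log2 scale (edgeR adjusted p = 0.00317), with a log2 fold change of 4.49 without MTZ- DMSO replicate 3. The small heat shock protein gene hspb1 had 59.1, 28.5 and 97.3 CPM in MTZ+ DMSO, against 3.66, 2.95 and 3.74 CPM in MTZ- DMSO. hspb1 rose by 4.16 ± 0.47 on the log2 scale (edgeR adjusted p = 0.000312). The summed level of the list overlapped between the groups, at 7859 to 9228 CPM in MTZ+ DMSO and 7857 to 9110 CPM in MTZ- DMSO.

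Metabolic genes differed by pathway. Among glycolysis genes 34.3% were higher and 8.57% lower DEGs, and among cholesterol genes 25% and 0%. All genes tested had 14.3% and 9.14%. Glycolysis had 12 higher and 3 lower DEGs of 35 (5 lower with DESeq2, the likelihood ratio test, only the 6 libraries or MTZ+ DMSO replicate 1 left out, and 1 with library totals alone), among them gapdhs (918 ± 152 CPM in MTZ+ DMSO and 84.3 ± 27.2 CPM in MTZ- DMSO, SD, n = 3 each) and eno1a (10.5-fold, edgeR adjusted p = 0.00104). ldha, which makes lactate, had 105, 203 and 196 CPM in MTZ+ DMSO, against 18.1, 17.9 and 65.2 CPM in MTZ- DMSO. ldha rose by 2.31 ± 0.50 on the log2 scale (edgeR adjusted p = 0.00587), with a log2 fold change of 3.21 without MTZ- DMSO replicate 3. Cholesterol genes had 7 higher and 0 lower DEGs of 28 in the edgeR fit (also 0 lower with DESeq2 and at an unadjusted p under 0.05), including the LDL receptor gene ldlra with 39.6, 36.2 and 40.7 CPM in MTZ+ DMSO, against 3.31, 8.74 and 4.93 CPM in MTZ- DMSO. ldlra rose by 2.78 ± 0.43 on the log2 scale (edgeR adjusted p = 0.00128). insig1, a sterol sensor, had 298, 114 and 234 CPM in MTZ+ DMSO, against 35.5, 42.1 and 66.4 CPM in MTZ- DMSO. insig1 rose by 2.17 ± 0.44 on the log2 scale (edgeR adjusted p = 0.00433). That list had 4 higher DEGs without MTZ+ DMSO replicate 2, and 4 with only the 6 libraries in the fit. Of 37 genes of fatty acid oxidation and lipid storage 7 were higher and 4 lower, and 12 and 2 with library totals alone. The shares of 18.9% and 10.8% were near those of all genes tested (14.3% and 9.14%). Without MTZ+ DMSO replicate 2 or MTZ- DMSO replicate 1 there were 2 lower. Among the higher genes was cidec, a lipid droplet protein, with 19.2, 6.01 and 12.4 CPM in MTZ+ DMSO libraries and 0 counts in MTZ- DMSO libraries (at least 114-fold).

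Stress genes split in the same manner. Of 40 genes of oxidative defence 10 were higher and 7 lower DEGs (25% and 17.5%, beside 14.3% and 9.14% of all genes tested). txn, a thioredoxin, had 703, 1349 and 2051 CPM in MTZ+ DMSO, against 33.8, 37 and 61.4 CPM in MTZ- DMSO. txn rose by 4.96 ± 0.54 on the log2 scale (edgeR adjusted p = 0.000292). The peroxiredoxin gene prdx1 had 267, 301 and 701 CPM in MTZ+ DMSO, against 6.89, 16.3 and 23.4 CPM in MTZ- DMSO. prdx1 rose by 4.76 ± 0.60 on the log2 scale (edgeR adjusted p = 0.000489). gpx4a, which detoxifies lipid peroxides, and sod3a, the extracellular superoxide dismutase, were lower. gpx4a had 212, 109 and 128 CPM in MTZ+ DMSO, against 859, 821 and 766 CPM in MTZ- DMSO. gpx4a fell by 2.45 ± 0.41 on the log2 scale (edgeR adjusted p = 0.00175). sod3a had 47, 14.5 and 19.4 CPM in MTZ+ DMSO, against 284, 353 and 272 CPM in MTZ- DMSO. sod3a fell by 3.49 ± 0.62 on the log2 scale (edgeR adjusted p = 0.00233), with a log2 fold change of -4.16 without MTZ+ DMSO replicate 1. Genes of the DNA damage response had 17 higher and 7 lower DEGs of 39 (43.6% and 17.9%, beside 14.3% and 9.14% of all genes tested). Their summed level went the other way, at 5788 to 6228 CPM in MTZ+ DMSO and 6663 to 12113 CPM in MTZ- DMSO. mdm2, a ubiquitin ligase, had 122, 255 and 289.7 CPM in MTZ+ DMSO, against 65.2, 44.1 and 53.3 CPM in MTZ- DMSO. mdm2 rose by 2.04 ± 0.46 on the log2 scale (edgeR adjusted p = 0.00726). phlda3, a repressor of Akt, had 328, 501 and 537 CPM in MTZ+ DMSO, against 90.3, 82 and 65.4 CPM in MTZ- DMSO. phlda3 rose by 2.52 ± 0.36 on the log2 scale (edgeR adjusted p = 0.000794). ccng2, a cyclin of resting cells, had 245, 89.8 and 178 CPM in MTZ+ DMSO, against 1593, 1299 and 1070 CPM in MTZ- DMSO. ccng2 fell by 2.95 ± 0.54 on the log2 scale (edgeR adjusted p = 0.00279). cdkn1a, which halts the cell cycle, had 88.3, 164 and 174 CPM in MTZ+ DMSO, against 46.8, 93.1 and 31.5 CPM in MTZ- DMSO. cdkn1a rose by 1.32 ± 0.44 on the log2 scale (edgeR adjusted p = 0.0433), with overlapping groups. It lost its call without MTZ+ DMSO replicate 2 or 3 or MTZ- DMSO replicate 1 or 3 (edgeR adjusted p = 0.114 to 0.13). It was also lost without a filter and with only the 6 libraries (edgeR adjusted p = 0.0503 and 0.0582). Of that list 4 were lower without MTZ+ DMSO replicate 3 and with library totals alone.

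Lysosome and autophagy genes had 8 higher and 11 lower DEGs of 65, a lower share above that of all genes and a median of -0.25 (0.19 with library totals alone, where 7 were lower). Without MTZ- DMSO replicate 1 there were 4 higher. ctsd, cathepsin D, a main protease in the digestion of outer segments, had 7344, 3555 and 4892 CPM in MTZ+ DMSO, against 25539, 19264 and 17850 CPM in MTZ- DMSO. ctsd fell by 1.99 ± 0.37 on the log2 scale (edgeR adjusted p = 0.00283). tfeb, a factor that drives lysosomal genes, had 18, 4.93 and 5.47 CPM in MTZ+ DMSO, against 51, 57.7 and 65.4 CPM in MTZ- DMSO. tfeb fell by 2.62 ± 0.50 on the log2 scale (edgeR adjusted p = 0.00325), with a log2 fold change of -3.48 without MTZ+ DMSO replicate 1. sqstm1, the autophagy receptor p62, which overlaps mrnip, had 626, 1184 and 1433 CPM in MTZ+ DMSO, against 282, 259 and 195 CPM in MTZ- DMSO. sqstm1 rose by 2.14 ± 0.43 on the log2 scale (edgeR adjusted p = 0.00436). Circadian clock genes had 32.4% higher and 16.2% lower DEGs, beside 14.3% and 9.14% of all genes tested. Of these 37 genes 12 were higher and 6 lower DEGs (13 and 4 with library totals alone). Their summed level was lower, at 3083 to 4071 CPM in MTZ+ DMSO and 4702 to 5678 CPM in MTZ- DMSO. per2, a light-responsive clock gene, had 167, 127 and 136 CPM in MTZ+ DMSO, against 2.07, 1.39 and 7.13 CPM in MTZ- DMSO. per2 rose by 5.34 ± 0.88 on the log2 scale (edgeR adjusted p = 0.00158), with a log2 fold change of 6.37 without MTZ- DMSO replicate 3. nfil3 had 98.4, 120.3 and 82.8 CPM in MTZ+ DMSO, against 7.89, 0.382 and 2.34 CPM in MTZ- DMSO. nfil3 rose by 4.84 ± 0.81 on the log2 scale (edgeR adjusted p = 0.00174), with a log2 fold change of 6.198 without MTZ- DMSO replicate 1. The hour of collection is not given for the groups in the sources used here.

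Summed markers of RPE named by the study were lower, and those of several other cell types were higher, the Müller glia sum through the single gene apoeb. Of 9 RPE markers 4 were lower DEGs and 0 higher in the edgeR fit (0 higher with DESeq2, 1 at an unadjusted p under 0.05). The lower share of 44.4% compares with 9.14% of all genes tested. With library totals alone 2 were lower and 1 higher, and without MTZ+ DMSO replicate 2 there were 2 lower. Their summed level ranged from 25178 to 46714 CPM in MTZ+ DMSO libraries and from 65894 to 75844 CPM in MTZ- DMSO libraries. All 9 were present in every library, and the type of the cells that held them was not recorded. Müller glia markers had 65% higher and 10% lower DEGs, beside 14.3% and 9.14% of all genes tested. Of these 20 markers 13 were higher and 2 lower DEGs, with sums of 25020 to 42159 CPM in MTZ+ DMSO and 13801 to 17590 CPM in MTZ- DMSO. The rise of that sum rests on apoeb, a lipid carrier of glia and macrophages, and without it the sums of the groups overlap. apoeb had 14288, 25153 and 13203 CPM in MTZ+ DMSO, against 374, 505 and 211 CPM in MTZ- DMSO. apoeb rose by 5.59 ± 0.64 on the log2 scale (edgeR adjusted p = 0.000333), and it overlaps nbn. slc1a2b, a glutamate transporter of glia, had 494, 894 and 679 CPM in MTZ+ DMSO, against 35.2, 22.4 and 30.1 CPM in MTZ- DMSO. slc1a2b rose by 4.56 ± 0.52 on the log2 scale (edgeR adjusted p = 0.000333). rlbp1a, the retinoid carrier of Müller glia, had 279, 399 and 290.1 CPM in MTZ+ DMSO, against 41.6, 5.58 and 33.8 CPM in MTZ- DMSO. rlbp1a rose by 3.58 ± 0.66 on the log2 scale (edgeR adjusted p = 0.00291). glula, glutamine synthetase, had overlapping groups, with 9650, 9638 and 6790 CPM in MTZ+ DMSO, against 11771, 9339 and 10370 CPM in MTZ- DMSO. glula did not pass the test (log2 fold change -0.27 ± 0.45, edgeR adjusted p = 0.685). cx43, a gap junction protein, was 6.68-fold lower. gfap, the intermediate filament of glia, had 10.4, 29.2 and 7.58 CPM in MTZ+ DMSO, against 0.996, 0.104 and 0 CPM in MTZ- DMSO. gfap rose by 5.43 ± 1.31 on the log2 scale (edgeR adjusted p = 0.0103), with a log2 fold change of 8.13 without MTZ- DMSO replicate 1.

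Markers of amacrine, horizontal and ganglion cells had low sums in both groups, and those of photoreceptors and bipolar cells had larger ones. The share of higher DEGs was 43.8% for bipolar, 33.3% for amacrine and horizontal and 22.2% for ganglion cell markers, beside 14.3% of all genes tested. For rod and cone markers it was 11.4%, under that of all genes. Of 35 rod and cone markers 4 were higher and 0 lower DEGs in the edgeR fit (0 lower with DESeq2 and at an unadjusted p under 0.05, with 7 higher in DESeq2 and 9 higher without MTZ- DMSO replicate 3). Their sums were 899 to 2733 CPM in MTZ+ DMSO and 477 to 1557 CPM in MTZ- DMSO. rho, rod opsin, varied from library to library, with 381, 33.1 and 427 CPM in MTZ+ DMSO, against 2.23, 4.86 and 173 CPM in MTZ- DMSO. Bipolar markers had 7 higher and 2 lower DEGs of 16 but lower sums (859 to 1757 CPM in MTZ+ DMSO, 2020 to 2891 CPM in MTZ- DMSO). Leaving out any 1 of MTZ+ DMSO replicates 1 and 2 and MTZ- DMSO replicate 1 brought the higher bipolar DEGs to 2, and leaving out MTZ- DMSO replicate 3 or applying no filter to 3. No bipolar marker was a lower DEG without MTZ+ DMSO replicate 2 or 3 or MTZ- DMSO replicate 2. Markers of amacrine and horizontal cells had 6 higher DEGs of 18, and their sums overlapped (213.9 to 297 CPM in MTZ+ DMSO and 208 to 238 CPM in MTZ- DMSO). They had 10 higher DEGs with DESeq2, 2 without MTZ+ DMSO replicate 2 and 3 without MTZ- DMSO replicate 2 or 3. Ganglion cell markers had 4 of 18, with sums of 222 to 274 CPM in MTZ+ DMSO and 24.7 to 60.0 CPM in MTZ- DMSO. rbpms2b, an RNA-binding protein of ganglion cells, had 76.6, 111 and 78.3 CPM in MTZ+ DMSO, against 2.67, 2.36 and 8.21 CPM in MTZ- DMSO. rbpms2b rose by 4.32 ± 0.65 on the log2 scale (edgeR adjusted p = 0.00103), with a log2 fold change of 5.13 without MTZ- DMSO replicate 3.

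Leukocyte markers were low. Of 29 tested 1 was a DEG (3 higher with DESeq2), csf1ra, the receptor of Il34 on macrophages and on pigment cells called xanthophores, with 1.14, 1.6 and 6.2 CPM in MTZ+ DMSO, against 0, 0 and 0.035 CPM in MTZ- DMSO (at least 27.2-fold, edgeR adjusted p = 0.0106). Its mean TPM fell under 1 without MTZ+ DMSO replicate 3, so that it was no longer counted. The sums ran from 29.8 to 214 CPM in MTZ+ DMSO and from 36.9 to 58.2 CPM in MTZ- DMSO, and mpeg1.1 of macrophages (1.64, 0 and 22 CPM in MTZ+ DMSO and 0, 0.867 and 5.73 CPM in MTZ- DMSO), lyz of neutrophils (0.228, 0.315 and 0.962 CPM in MTZ+ DMSO and 1.04, 0 and 0.14 CPM in MTZ- DMSO) and ptprc of all leukocytes (0.775, 0.0262 and 3.43 CPM in MTZ+ DMSO and 0.199, 0.277 and 0.769 CPM in MTZ- DMSO) had overlapping groups. mpx, a neutrophil enzyme, had 0, 1.68 and 0.308 CPM in MTZ+ DMSO libraries and 0 in MTZ- DMSO libraries (edgeR adjusted p = 0.0604). csf1rb had 1.14, 0 and 0 CPM in MTZ+ DMSO and 0.677, 0.971 and 1.26 CPM in MTZ- DMSO, with overlapping groups.

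Epidermal and other markers gave mixed values. Among epidermal and corneal markers 35% were higher and 5% lower DEGs, beside 14.3% and 9.14% of all genes tested. Epidermal and corneal markers had 7 higher and 1 lower DEGs of 20, and their sums went the other way (406 to 711 CPM in MTZ+ DMSO and 836 to 1249 CPM in MTZ- DMSO), which rests on krt97, a keratin with 44.1, 6.08 and 45.7 CPM in MTZ+ DMSO, against 1134, 821 and 687 CPM in MTZ- DMSO. krt97 fell by 4.79 ± 0.80 on the log2 scale (edgeR adjusted p = 0.00172). The simple-epithelial keratins krt8 and krt18a.1 were higher. krt8 had 50.3, 73.1 and 43.7 CPM in MTZ+ DMSO, against 1.83, 0.694 and 3.18 CPM in MTZ- DMSO. krt8 rose by 4.87 ± 0.80 on the log2 scale (edgeR adjusted p = 0.00162), with a log2 fold change of 5.46 without MTZ- DMSO replicate 3. krt18a.1 had 41, 98.5 and 146 CPM in MTZ+ DMSO, against 0.836, 0.347 and 0 CPM in MTZ- DMSO. krt18a.1 rose by 7.94 ± 1.23 on the log2 scale (edgeR adjusted p = 0.00124), with a log2 fold change of 9.06 without MTZ- DMSO replicate 1. serpinb1, a protease inhibitor, had 68.5, 78.3 and 30.2 CPM in MTZ+ DMSO, against 3.39, 6.45 and 2.2 CPM in MTZ- DMSO. serpinb1 rose by 3.88 ± 0.50 on the log2 scale (edgeR adjusted p = 0.000527). scpp8 and selenop had overlapping groups (4.45 ± 2.11 and 0.52 ± 0.41, edgeR adjusted p = 0.131 and 0.357). Markers of blood vessels (3 higher DEGs of 16), fibroblasts (2 of 17), muscle (2 of 11) and iridophores and xanthophores (4 higher and 1 lower of 17) followed. The higher shares of these lists were 18.8%, 11.8%, 18.2% and 23.5%, beside 14.3% of all genes tested. Their sums were 162 to 206 CPM in MTZ+ DMSO and 78.7 to 101 CPM in MTZ- DMSO for blood vessels, and 81.3 to 115 CPM in MTZ+ DMSO and 7.87 to 20.9 CPM in MTZ- DMSO for fibroblasts. Muscle markers summed to 34.3 to 106 CPM in MTZ+ DMSO and 19.6 to 40.7 CPM in MTZ- DMSO, and those of iridophores and xanthophores to 1875 to 4133 CPM in MTZ+ DMSO and 1211 to 1531 CPM in MTZ- DMSO. Without MTZ- DMSO replicate 3 fibroblast markers had 5 higher DEGs, and without MTZ+ DMSO replicate 3 or MTZ- DMSO replicate 1 those of iridophores and xanthophores had 2. Markers of red blood cells (1 higher DEG of 2 tested) summed to 261 to 452 CPM in MTZ+ DMSO and 2.06 to 81.7 CPM in MTZ- DMSO. Nearly all of the MTZ+ DMSO sum was cahz, the carbonic anhydrase gene given above with the transporters. Of the 18 genes of that list, 13 had 0 counts in every MTZ+ DMSO library. Lens markers (0 DEGs of 6 in the edgeR fit, 2 higher at an unadjusted p under 0.05 and 1 higher with DESeq2) summed to 6.89 to 10.6 CPM in MTZ+ DMSO and 2.08 to 4.70 CPM in MTZ- DMSO. Melanophore and neural crest markers (3 lower DEGs of 9, among them sox10 and mitfa) summed to 124 to 175 CPM in MTZ+ DMSO and 344 to 359 CPM in MTZ- DMSO. Most of that sum in every library was mitfa, which is also counted above among the RPE factors. The part of any of these cell types in the DEGs above was not tested.

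**Figure D4:**
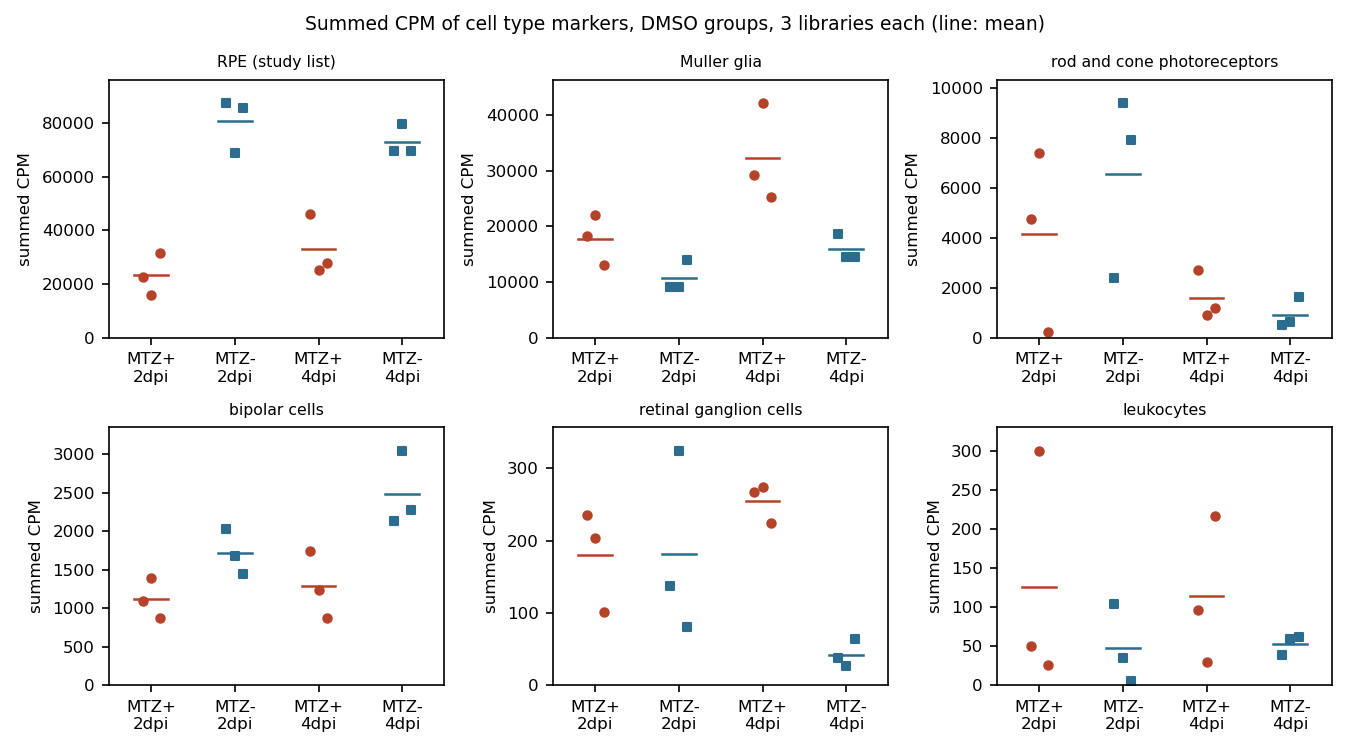
Summed CPM of 6 marker lists in each DMSO library at 2dpi and 4dpi, with MTZ+ (circles) left of MTZ- (squares) at each time and a line at each mean, scaled over the 24 libraries of both time points. RPE markers are lower in every MTZ+ library at both times. At 4dpi the sums for Müller glia (through apoeb) and ganglion cells are higher in every MTZ+ library, and those for bipolar cells are lower.

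The effect of ablation at 4dpi was set against that at 2dpi, in larvae 7 days old, with a test of the difference on all 24 libraries. Of 18939 genes 282 differed upward (1.49%) and 216 downward (1.14%). Among the 2512 genes higher at 4dpi, 188 had a larger change at 4dpi than at 2dpi and 20 a smaller one, and among the 1601 lower genes 69 had a more negative change at 4dpi and 4 a less negative one. These genes were chosen by the change at 4dpi, which is itself part of the difference. The choice alone favours such a split, so it does not show that effects of ablation grew. The 2 time points share no library, and the time after injury and the age of the larvae cannot be told apart.

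The gene list with most differences upward was that of mitosis, 16 of 48 tested, and 0 differed downward in the edgeR fit, with DESeq2 or at an unadjusted p under 0.05. The summed CPM of its members shows which libraries differed. At 2dpi they summed to 191, 300 and 79.9 CPM in MTZ+ DMSO and 224, 1184 and 205 CPM in MTZ- DMSO, and at 4dpi to 271, 207 and 237 CPM in MTZ+ DMSO and 52.1, 80.4 and 58.8 CPM in MTZ- DMSO. MTZ+ DMSO levels thus overlapped between the time points, and the unablated libraries were lower at 4dpi than at 2dpi, with the highest sum in MTZ- DMSO replicate 2 at 2dpi. Without that library 5 mitosis genes differed upward, and the count was 8 without MTZ+ DMSO replicate 3 at 2dpi, 10 without MTZ+ DMSO replicate 1 at 4dpi and 6 without MTZ- DMSO replicate 1 at 4dpi. hmmr, nusap1, prc1b and ube2c_1 differed by 13.0 ± 2.06, 11.32 ± 1.901, 11.44 ± 2.32 and 11.35 ± 2.15 on the log2 scale (edgeR adjusted p = 0.00463, 0.00602, 0.0154 and 0.0108) and were called with any 1 of the 12 libraries left out. These 4 estimates rest on libraries at or near 0 counts and give no bound of the difference. Notch genes differed upward in 6 of 42, a count that was between 1 and 8 with 1 library left out (1 without any one of 7 of the 12 libraries).

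Ribosome biogenesis factors showed the opposite, with 23 of 86 tested smaller at 4dpi and a median difference of -1.29. In the edgeR fit, with DESeq2 and at an unadjusted p under 0.05, 0 were larger. Scaled over the 24 libraries, they summed to 8232, 9358 and 10466 CPM in MTZ+ DMSO and 2044, 2318 and 2076 CPM in MTZ- DMSO at 2dpi, and to 4288, 5816 and 4733 CPM in MTZ+ DMSO and 4441, 3754 and 3463 CPM in MTZ- DMSO at 4dpi. Here MTZ+ DMSO was lower and MTZ- DMSO higher at 4dpi than at 2dpi in every library, and at 4dpi the sums of the groups overlapped on this scale. On the scale of the 4dpi fit alone they did not, with 4343 to 5827 CPM in MTZ+ DMSO and 3296 to 4203 CPM in MTZ- DMSO. ddx21, a nucleolar helicase, was a lower DEG at 4dpi and differed by -2.12 ± 0.37 (edgeR adjusted p = 0.00605). Its call at 4dpi was lost with library totals alone (log2 change -0.61) and without MTZ- DMSO replicate 1 or 2 (-0.89 and -0.97). The count of differing members was between 11 and 23 with 1 library left out, 11 without MTZ+ DMSO replicate 3 at 2dpi or MTZ- DMSO replicate 1 at 4dpi and 14 without MTZ+ DMSO replicate 1 at 4dpi.

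Other genes differed singly. The change of abracl was larger at 4dpi by 2.93 ± 0.35 (edgeR adjusted p = 0.000855) and that of slc43a2b more negative by -3.77 ± 0.75 (edgeR adjusted p = 0.0133). col4a5 and col4a6 had a larger change at 4dpi than at 2dpi by 2.21 ± 0.42 and 2.35 ± 0.43 (edgeR adjusted p = 0.0106 and 0.00804). dusp6 and gas6, a ligand of Mertk, differed downward by -2.32 ± 0.40 and -3.03 ± 0.62 (edgeR adjusted p = 0.00593 and 0.0149). These 6 differences were called with any 1 of the 12 libraries left out. Some genes of injury signalling gave no such difference. For lepb, il11a, il34 and cxcl18b the test of the difference had edgeR adjusted p = 1, 0.86, 0.779 and 0.914, which does not show that the effects were equal. In the cytokine list 2 genes differed upward, and in the list of leptin, interleukin 11 and Jak/Stat3 genes 3 differed downward. Melanin, visual cycle and study-list RPE genes had 0 differences of 23, 27 and 9 in the edgeR fit. At an unadjusted p under 0.05 there were 4 (melanin), 2 (visual cycle) and 1 (RPE), and DESeq2 called 1, 0 and 1.

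**Figure D5:**
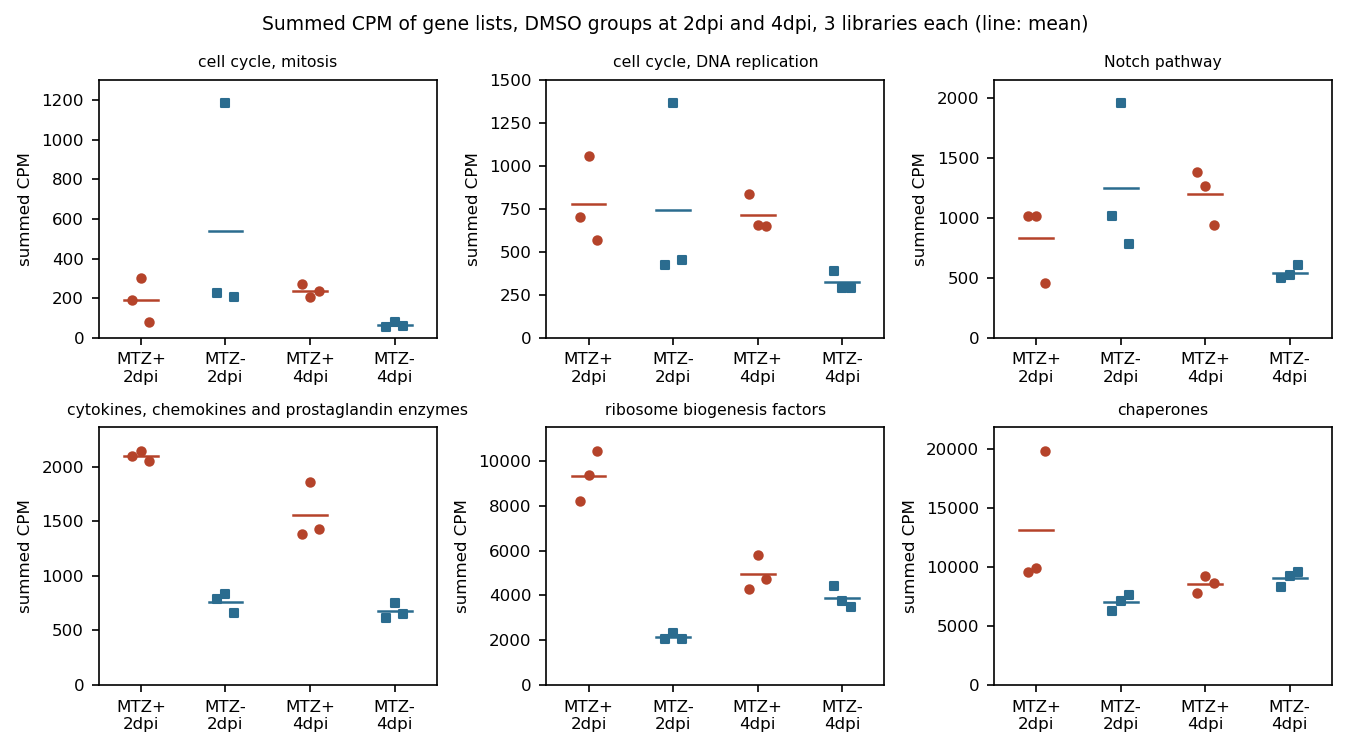
Summed CPM of 6 gene lists in each DMSO library at 2dpi and 4dpi, with MTZ+ (circles) left of MTZ- (squares) at each time and a line at each mean, scaled over the 24 libraries. MTZ- DMSO libraries have lower mitosis sums at 4dpi than at 2dpi, 1 MTZ- DMSO library at 2dpi lies far above the rest, ribosome biogenesis sums in MTZ+ DMSO are lower at 4dpi than at 2dpi, and chaperone sums of the groups overlap at 4dpi.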

How the data were processed

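Libraries were made from up to 1000 sorted eGFP+ cells with a SMART-Seq ultra-low input kit and Nextera XT. Reads were mapped by the authors with CLC Genomics Workbench to the GRCz11 genome (version not given in the sources used here), and the deposited tables hold for each gene and library the total count of fragments and the RPKM and TPM that they derived from those counts. How reads that fit several genes or lie on either strand were assigned is not stated, so near copies and overlapping genes are uncertain. Further columns of the tables hold the authors' own comparisons (fold changes, group means, p-values and adjusted p-values), which were not used.

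Total counts of the 12 libraries at 4dpi, in 4 groups (6 libraries with DMSO and 6 with Rapamycin, which share the estimate of the spread), were fitted with edgeR 4.0.16 in R 4.3.3: TMM scaling, filterByExpr with a minimum count of 10, a robust quasi-likelihood fit without a block, the contrast MTZ+ DMSO minus MTZ- DMSO, and Benjamini-Hochberg adjustment over 17515 genes. The biological coefficient of variation was 0.619. A DEG had a log2 fold change over 1, an adjusted p under 0.05 and a mean of at least 1 TPM, from the deposited TPM, in the higher group. CPM are counts divided by the TMM-scaled library size. Errors of log2 fold changes are standard errors, derived from the test statistic. The difference between 4dpi and 2dpi was an interaction term over 24 libraries and 18939 genes. Where 1 group had at most 3 counts in each library, a lower bound of the fold was computed from the mean of the other group against 3 counts per library. It is a bound for the group mean and not for each library. In a test on simulated data for the 4dpi comparison (16970 genes), 12 of 66 genes with a true log2 change of 1.5 were called, 18 of 61 with 2 and 31 of 65 with 3, none in the wrong direction. It also called 2 unchanged genes. The simulation changed 200 genes, gave all groups the same means otherwise and applied no TPM minimum. It therefore does not cover the broad shift between the real groups, on which calls near the threshold depend.

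The labels number the replicates and do not say whether they come from separate clutches, so p-values measure the spread between these libraries. Same-numbered libraries of the 2 groups share a date in their raw names, but deviated together with r = 0.00938, 0.0241 and 0.0363 only, which is under 0.1, so the number was not used as a block. Genes named were the 10 DEGs with the smallest p and the 8 with the largest change in each direction, alike in 3 pairs, up to 6 members of each list, markers, and genes the study names. The members and lists were chosen with earlier results of these data known. Alternatives were DESeq2 1.42.0, RLE scaling, no filter, the replicate block, a likelihood ratio test, only 6 libraries, RPKM or CPM for TPM, the adjusted p alone, library totals alone, and each library left out. Some genes are not reported here, and promoter sequences were not analysed here.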

Additional observations from a re-analysis of the deposited data

Results flagged for a closer look

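For 37 genes named in the text the effect of ablation at 4dpi differed from that at 2dpi by the test of the difference (edgeR, interaction term), and 15 of them kept that call with any 1 of the 12 libraries left out: hmmr, nusap1, prc1b, ube2c_1, abracl, dnajb11, lfng, col4a5, col4a6, CABZ01085140.1, slc43a2b, gas6, dusp6, ddx21 and gtpbp4. SRCIN1 and ccne2 kept it in 0 of the 12, cpn1_2 and prox1a in 1, and fn1a, notch3 and lifrb in 2. Each value is the log2 change at 4dpi minus that at 2dpi. Of genes of division and replication, hmmr differed by 13.0, prc1b by 11.44, ube2c_1 by 11.35, nusap1 by 11.32, mki67 by 9.11, kif11 by 8.45, cdk1 by 7.72, mcm2 by 7.35, mcm5 by 6.83 and ccne2 by 6.55. Unablated libraries had higher mitosis sums at 2dpi than at 4dpi, MTZ- DMSO replicate 2 at 2dpi most of all. Of the 37 genes, 21 lost the call without that library. Other libraries mattered nearly as much: 20 lost it without MTZ- DMSO replicate 1 at 4dpi, 18 without MTZ+ DMSO replicate 3 at 2dpi and 17 without MTZ- DMSO replicate 2 at 4dpi. The fewest, 3, lost it without MTZ- DMSO replicate 3 at 2dpi. Values of genes with libraries at or near 0 counts are fitted estimates and no bounds.

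Retinal and Notch genes differed upward: gad1b (an enzyme of GABA synthesis) by 10.22, dlc by 9.79, hey1 by 4.997, prox1a (a factor of horizontal and amacrine cells) by 4.37, notch3 by 2.85 and lfng by 2.43. So did matrix genes, with fn1a at 8.72, mmp14b at 3.56, col4a6 at 2.35 and col4a5 at 2.21, and the single genes mt2 (3.26), abracl (2.93), pfkfb3 (2.92), mdka (2.87), dnajb11 (2.19) and ptgesl (1.299). Downward differences were found for CABZ01085140.1 (-9.18), SRCIN1 (-6.99), slc43a2b (-3.77), lifrb, a receptor of the interleukin 6 family (-3.74), gas6 (-3.03), cpn1_2 (-2.97), dusp6 (-2.32), ddx21 (-2.12), gtpbp4 (-1.55), caprin1b (-1.53) and dstyk (-1.28).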

How the results depend on the processing

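Counts of DEGs at 4dpi lay between 1838 and 3732 higher and between 955 and 2130 lower over all alternatives. No gene that was a DEG was called in the opposite direction under any of them. DESeq2 called 3022 higher and 1911 lower, and the likelihood ratio test 3003 and 1795. RLE scaling gave 2421 and 1680, no filter 2341 and 1512, only the 6 compared libraries 2194 and 1717, RPKM in place of TPM 2233 and 1560, CPM in place of TPM 2579 and 1618, and the adjusted p alone 3094 and 2130. With library totals alone the lower count was 955. The replicate block gave 2418 higher and 1622 lower, 2294 and 1523 of them shared with the fit without it; among the genes named it took away the calls of foxm1 and cxcl8a and added that of rpe65a. Leaving out 1 library gave 1838 to 2336 higher and 1088 to 1687 lower.

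The difference between 4dpi and 2dpi was less stable. DESeq2 called 819 genes upward and 463 downward, and leaving out 1 of the 12 libraries gave 106 to 272 upward and 73 to 214 downward. The median difference over genes tested was 0.16. RLE scaling (290 and 224), no filter (226 and 187) and the replicate block (367 and 271) gave counts within 1.5 times of the 282 and 216 reported.

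Of the genes named in the text, 13 of those called lost the call with library totals alone, all of them lower genes, and 17 lost it without MTZ+ DMSO replicate 2, the most of any library. With RPKM in place of TPM mki67, hmmr, csf1ra and SRCIN1 had means under the minimum. The part of depth was not tested, and for genes at 0 counts in MTZ- DMSO libraries only a lower bound of the change can be given.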

Other observations

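Myoglobin and the mitochondrial transcripts were looked at after their values were seen. mb, the oxygen-binding protein of muscle, was the gene with the most counts in 2 of the 3 MTZ- DMSO libraries, with 7518, 2892 and 4083 CPM in MTZ+ DMSO, against 34819, 32424 and 23678 CPM in MTZ- DMSO (log2 fold change -2.65 ± 0.68, edgeR adjusted p = 0.014). Its call was lost without MTZ+ DMSO replicate 2 or 3 (edgeR adjusted p = 0.0592 and 0.053). Skeletal muscle markers summed to 34.3 to 106 CPM in MTZ+ DMSO and 19.6 to 40.7 CPM in MTZ- DMSO. Of 13 tested genes encoded by the mitochondrial genome 11 were higher and 0 lower DEGs in the edgeR fit. All genes tested had 14.3% higher and 9.14% lower. Log2 changes of the 13 genes ran from 0.78 to 1.97 (median 1.23), and their count under the alternatives was not computed. mt-co1, a subunit of cytochrome c oxidase, had 20101, 22021 and 26889 CPM in MTZ+ DMSO, against 9781, 10495 and 11986 CPM in MTZ- DMSO (log2 fold change 1.097 ± 0.21, edgeR adjusted p = 0.00295), and 0.97 on the log2 scale without MTZ+ DMSO replicate 3, under the fold limit. MTZ+ DMSO replicate 2, the library whose raw name has the letter of the MTZ+ Rapamycin group, had the highest level of lepb, il11a, il11b, apoeb and cyp26a1 in its group.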
